A study of Rattus norvegicus with 6 samples.

Results

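The genes described here make and exchange disulfide bonds in the endoplasmic reticulum (ER), in the thyroid of non-pregnant (NP) rats and of rats in late pregnancy (LP, day 18). They are 10 of the 15388 genes in the deposited tables, found by their symbols: the disulfide isomerases P4hb, Pdia3, Pdia4, Pdia5, Pdia6 and Txndc5, the oxidases Ero1l and Ero1lb, and the linked proteins Erp44 and Creld2. All 10 were present, and all 10 passed edgeR's default filter on low counts, as did 11738 genes in all. The list was chosen by function with the LP against NP values of these same samples already known. Its values in that comparison are therefore a description, and no count or median over the 10 genes is offered as evidence about them.

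The animals were adult female Sprague-Dawley rats, with no transgene or drug named in the labels. Thyroids of 3 LP rats came from day 18 of gestation, counted from the plug as day 1, and those of 3 NP rats served as controls. PolyA+ RNA was sequenced. Library totals were between 2752144 and 2965936 counted reads in NP and between 3224104 and 3449857 in LP, and 3 reads corresponded to between 0.870 and 1.09 CPM (reads per 1e6 counted reads).

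Proteins that leave the cell fold in the ER, where pairs of cysteines are joined into disulfide bonds. The isomerases (the PDI family) form, break and rearrange these bonds in a client, and the ERO1 oxidases take the electrons off P4hb and its relatives and pass them to oxygen, which yields hydrogen peroxide. The follicular cell of the thyroid secretes thyroglobulin (Tg), a very large protein rich in cysteines, and is known for its heavy load on this machinery. When unfolded proteins build up, the unfolded protein response raises many of these genes through the factors ATF6 and XBP1, which bind ER stress response elements in their promoters.

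In LP the messengers of this group were lower. At an adjusted p below 0.05 (edgeR, quasi-likelihood, Benjamini-Hochberg over every gene tested), 9 of the 10 genes were called lower in LP and 0 higher, where 11.7% of all genes tested were called lower and 15.3% higher. Among the 7943 genes averaging 50 reads or more, 15.5% were called lower. The falls were uneven. Creld2 fell 3.11-fold, Pdia4 2.00-fold, Ero1lb 1.86-fold and Pdia5 1.82-fold, whereas P4hb and Pdia3 fell 1.12-fold and 1.18-fold. Every LP sample lay below every NP sample for all 10 genes, and the same was true of 18.9% of all genes tested.

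**Figure D1:**
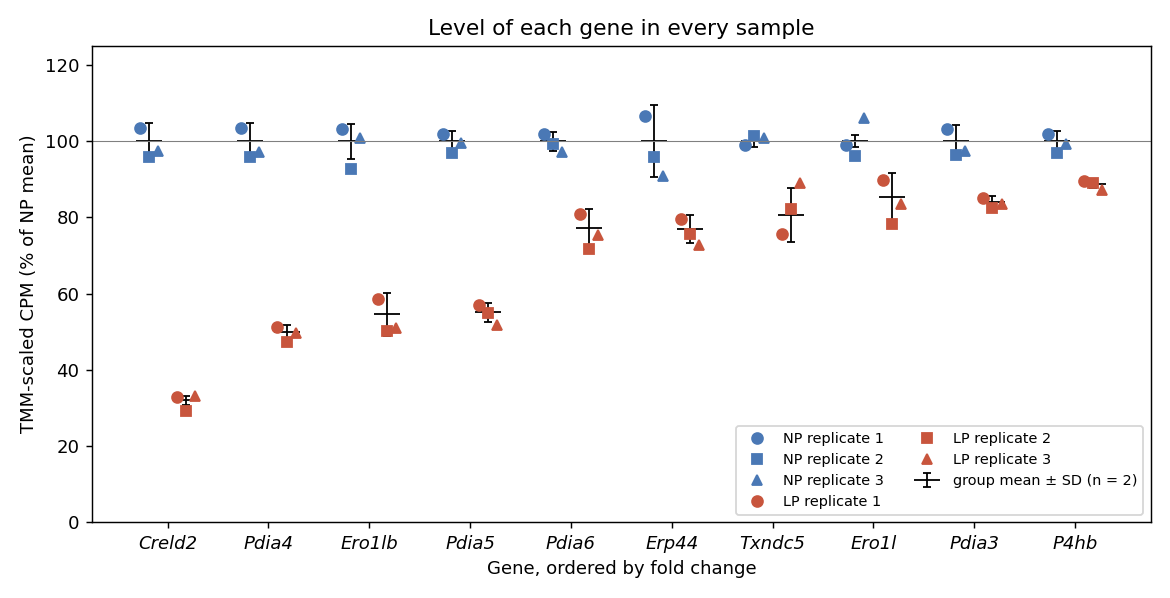
TMM-scaled CPM of each of the 10 genes in the 6 samples, as a percentage of the gene's NP mean, with blue symbols for NP and red for LP and black bars for the group mean ± SD (n = 2, replicates 2 and 3 being averaged). Creld2 stood at 32.02% of its NP mean in LP and P4hb at 88.9%, and no red symbol reaches a blue symbol of the same gene.

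Before the values are read, the replicates must be compared. A chi-square test of the counts found no difference beyond sampling noise between replicates 2 and 3 in NP (1.02 per degree of freedom, p = 0.111) or in LP (0.995, p = 0.667), while replicate 1 gave values between 3.70 and 4.11 against them. Each mean ± SD therefore treats them as a single sample (n = 2 per group), the SD being that between replicate 1 and the mean of the other two. The adjusted p-values rest on all 6 samples as deposited. The labels name 3 rats in each group and call the samples repeats, without tying each sample to a rat, so that p-values measure only the spread between these samples, which may be technical. With replicates 2 and 3 summed into 1 sample the same 9 genes were called lower, where 8.36% of all genes tested were. No exact test over the samples can help here, since with 3 samples against 3 it cannot go below 0.1.

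The tissue was checked against marker genes. All 12 follicular cell markers were read, with Tg taking between 22.9% and 24.5% of the reads of each library. Of these 12 markers 4 (33.3%) were called lower in LP and 3 (25%) higher, where 11.7% and 15.3% of all genes tested were. Of genes averaging 50 reads or more 15.5% and 17.1% were. Called lower were the iodide transporter Slc5a5 (-0.94 on the log2 scale), the thyrotropin receptor Tshr (-0.68), the deiodinase Dio1 (-0.43) and the transcription factor Hhex (-0.26). Called higher were 3, the transcription factor Nkx2-1 (0.28), the oxidase Duox2 (0.29) and its maturation factor Duoxa2 (0.48), and 5 were not called. C cell markers summed to between 14145 and 15113 CPM in NP and between 12508 and 13276 in LP, and parathyroid markers, which include the parathyroid hormone gene Pth, to between 4474 and 4848 CPM and between 3730 and 4045. Messengers of the C cells of the thyroid itself and of the neighbouring parathyroid gland were thus present as well. Of 20 skeletal muscle markers 15 were analysed, with 2 of them (Myh1 and Mylpf) at 0 in all NP samples, and they summed to between 24.7 and 81.5 CPM in NP and between 4903 and 5189 CPM in LP, or between 0.478% and 0.502% of LP reads. Of the 13 muscle markers tested 11 were called higher, and Acta1 (log2 fold change 0.11) and Pygm (0.29) were not called. Acta1 had 0 reads in replicate 1 of both groups and between 144 and 186 in the other libraries. Airway secretory markers (5 of 6 analysed) summed to between 2.87 and 6.92 CPM in NP and between 22.0 and 23.4 in LP. In such bulk samples fewer cells of a type and less RNA per cell cannot be told apart. The part of the muscle and airway RNA, and of the changes in follicular markers, in the falls below was not tested.

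Creld2 (ENSRNOT00000006357) encodes a cysteine-rich protein with EGF-like domains that is made in quantity under ER stress and is found with PDI family members. Replicates 1, 2 and 3 of NP held 1394, 1409 and 1429 of its reads, and those of LP held 496, 476 and 536. On the TMM scale these counts were 499.9, 463 and 471 CPM against 159, 142 and 160 CPM. The LP values lay at about the same level in all 3 libraries, far under the lowest NP value. The group means were 483 ± 23 CPM and 155 ± 5.9 CPM (SD, n = 2), that is -1.64 ± 0.061 on the log2 scale (fit and its standard error), the largest fall of the 10 genes.

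Pdia4 (ENSRNOT00000008728), known as ERp72, is an isomerase with several thioredoxin-like domains that works in a complex with the chaperone BiP. The NP libraries held 3018, 3054 and 3083 of its reads, the LP libraries 1672, 1667 and 1740. Scaled to library size, its level was 1082, 1004 and 1016 CPM in NP and 536, 496 and 518 CPM in LP. All LP libraries were thus near 50% of the NP mean (49.9%). Its fitted log2 fold change was -1.001 (standard error 0.047), and with Creld2 it was among the 2 members that fell by more than 2-fold at an adjusted p under 0.05, the criteria of the study, which 0.537% of all genes tested met in this direction. Pdia4 lay on that cutoff rather than beyond it: without NP replicate 1 its log2 fold change was -0.97 and without LP replicate 2 it was -0.97, so that Creld2 alone met the criteria.

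Pdia5 (ENSRNOT00000067984), known as PDIR, is an isomerase read at far lower counts. There were 80, 83 and 85 reads in NP against 50, 52 and 49 in LP, and the levels were 28.2 ± 0.74 CPM and 15.5 ± 0.70 CPM (SD, n = 2). Its log2 fold change was -0.86, with the widest error of the isomerases (standard error 0.13) and the fewest reads.

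The remaining isomerases fell by less. P4hb (ENSRNOT00000054958), the PDI for which the family is named and also a subunit of collagen prolyl 4-hydroxylase, was counted 3100, 3221 and 3291 times in NP libraries against 3052, 3265 and 3194 times in LP. These raw counts overlap, and the fall appears only once the deeper LP libraries are scaled. Its level was then 1112, 1059 and 1084 CPM in NP against 978, 972 and 951 CPM in LP, that is -0.17 ± 0.039 on the log2 scale (fit and its standard error). Pdia3 (ENSRNOT00000020478), known as ERp57, serves glycoproteins held by calnexin and calreticulin. Its level was 1519, 1421 and 1435 CPM in NP and 1254, 1214 and 1231 CPM in LP, that is -0.24 ± 0.038 on the log2 scale (fit and its standard error).

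Pdia6 (ENSRNOT00000074829), known as P5, also binds BiP. It went from 1147 ± 29 CPM to 885 ± 59 CPM (SD, n = 2), with LP libraries between 822 and 926 CPM, and the fitted log2 fold change was -0.39 (standard error 0.046). Txndc5 (ENSRNOT00000018310), an isomerase with repeated thioredoxin domains, went from 191 ± 2.9 CPM to 154 ± 13 CPM, that is -0.28 ± 0.063 on the log2 scale (fit and its standard error). Its LP libraries ranged from 145 CPM in replicate 1 to 170 CPM in replicate 3, and its lowest NP library was at 189 CPM.

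The ERO1 oxidases were measured separately. Ero1lb (ENSRNOT00000085669), the ERO1 form known from secretory cells such as those of the pancreas and raised by the unfolded protein response, was counted 339, 332 and 360 times in NP libraries against 215, 199 and 201 times in LP. Its level was 118 ± 5.4 CPM in NP and 64.2 ± 6.6 CPM in LP (SD, n = 2), that is -0.89 ± 0.074 on the log2 scale (fit and its standard error). Ero1l (ENSRNOT00000009404), the widely expressed form that also responds to low oxygen, was counted 66, 70 and 77 times in NP libraries against 67, 63 and 67 times in LP. Ero1l was the member not called: its adjusted p by edgeR was 0.167, and between 0.0612 and 0.531 over the alternative settings. The fit gave -0.26 ± 0.13 on the log2 scale, from 23.7, 23.0 and 25.4 CPM in NP libraries and 21.5, 18.7 and 20.0 CPM in LP. At this depth a change of that size could not be shown for it. In each library the reads of Ero1lb per 1000 reads of Ero1l, a ratio that needs no scaling, were between 4675 and 5136 in NP and between 3000 and 3209 in LP.

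Erp44 (ENSRNOT00000007711) carries ERO1 oxidases and unassembled clients back from the Golgi to the ER. Its level was 86.4, 77.6 and 73.5 CPM in NP and 64.4, 61.3 and 59.0 CPM in LP. Replicate 1 was the highest library of each group, and the groups did not overlap. The fitted log2 fold change was -0.36 (standard error 0.077).

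The 10 genes were ordered by the size of the fall, and neighbours in that order were compared. Each gap was set against a combined error, the root of the summed squares of the neighbours' standard errors. This treats the errors of neighbours as independent, although all genes were read in the same libraries. The order also came from the same values, so the gaps are a description and carry no test. Creld2 stood 0.64 below Pdia4 on the log2 scale, 8.33 combined errors. Pdia4, Ero1lb and Pdia5 followed each other with gaps of at most 1.21 combined errors, and no order among them is claimed. Between Pdia5 and Pdia6 lay a gap of 0.48 (3.45 combined errors). From Pdia6 down to P4hb no neighbours differed by more than 1.41 combined errors. The ends of that stretch were further apart, with Pdia6 at -0.39 (standard error 0.046) and P4hb at -0.17 (standard error 0.039). Levels are not ordered between genes, because gene lengths were not used.

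**Figure D2:**
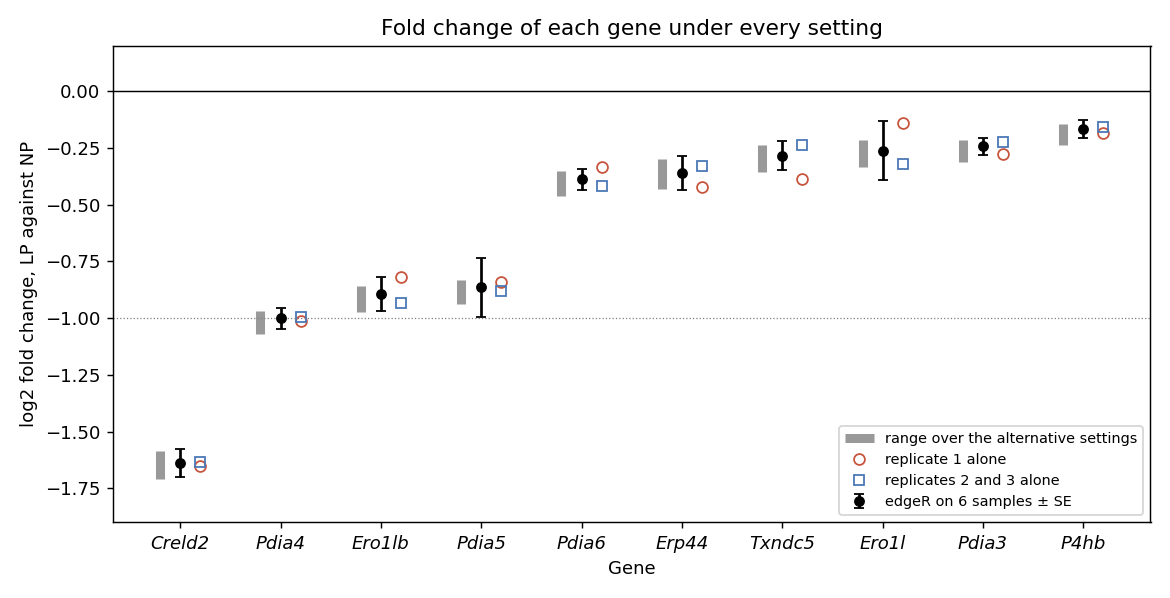
Log2 fold change of each gene, LP against NP, from edgeR on the 6 samples (black, ± standard error), its range over 15 alternative settings (grey), and the value in replicate 1 alone and in replicates 2 and 3 alone (open symbols). All values lie below 0, with Creld2 between -1.71 and -1.59 and P4hb between -0.24 and -0.14, and the dotted line marks a 2-fold fall.

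Taken separately, the replicates kept Creld2 first and Pdia4 second, while Ero1lb and Pdia5 changed places. In replicate 1 alone the log2 difference was -1.65 for Creld2, -1.01 for Pdia4, -0.82 for Ero1lb and -0.84 for Pdia5, and in replicates 2 and 3 alone it was -1.63, -0.99, -0.94 and -0.88. Txndc5 differed more between these subsets (-0.39 and -0.24), as did Ero1l (-0.14 and -0.32). P4hb stood at -0.18 and -0.16. These values carry no test.

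Ratios of reads within a library do not depend on how libraries are scaled. Per 1000 reads of P4hb there were 974, 948 and 937 reads of Pdia4 in NP and 548, 511 and 545 in LP. Isomerases of the same family thus changed unequally. The corresponding reads of Creld2 were 449.7, 437 and 434 in NP and 162, 146 and 168 in LP, whereas those of Pdia3 were 1366, 1342 and 1323 against 1282, 1250 and 1294. Set against Hspa5 (BiP), the chaperone it binds, Pdia4 kept its share: per 1000 Hspa5 reads the NP libraries held 213, 220 and 220 of its reads and the LP libraries 214, 209 and 221, and these ranges overlap.

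The same was done against the main client. Per 1000 reads of Tg there were 4.48, 4.48 and 4.52 reads of Pdia4 in NP and 2.14, 2.11 and 2.20 in LP. For P4hb the values were 4.598, 4.73 and 4.82 against 3.90, 4.14 and 4.03, and for Hspa5 they were 21.1, 20.4 and 20.6 against 9.98, 10.1 and 9.96. All of these ratios were lower in each LP library than in any NP library.

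**Figure D3:**
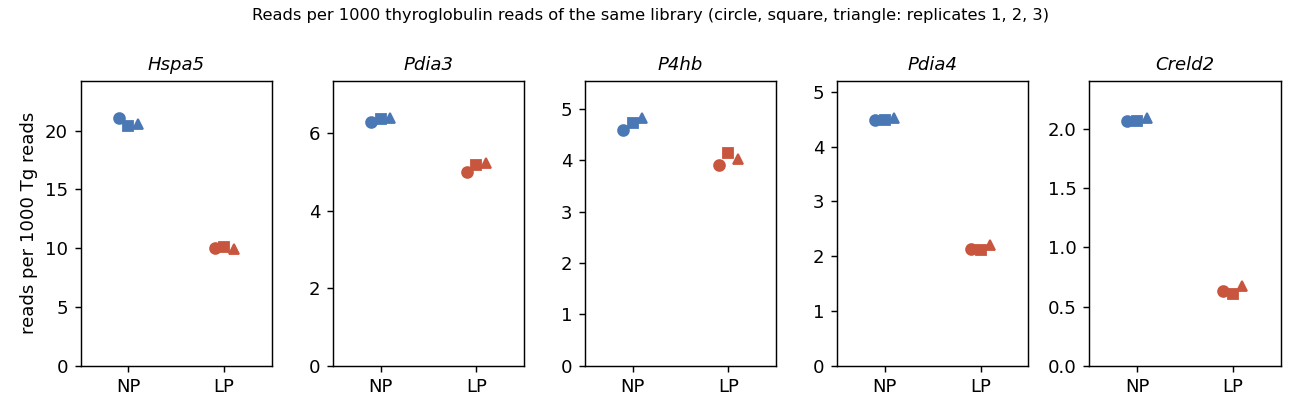
Reads of 5 genes per 1000 Tg reads of the same library in NP (blue) and LP (red), each vertical axis starting at 0, with circles, squares and triangles for replicates 1, 2 and 3. Creld2 went from between 2.07 and 2.09 in NP to between 0.604 and 0.677 in LP, while Pdia3 went from between 6.28 and 6.38 to between 5.003 and 5.22.

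The promoters of the members were then read for the elements through which the unfolded protein response acts. RefSeq windows from 250 bases before to 50 bases after the start of the gene (rat genome GRCr8) were matched by symbol for 7 of the 10 genes: P4hb, Pdia4, Pdia5, Txndc5, Ero1lb, Erp44 and Creld2. Both strands were searched for the ER stress response element ERSE, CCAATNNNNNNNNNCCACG, for ERSE-II, ATTGGNCCACG, and for the XBP1 site UPRE, TGACGTGG. The sites may overlap: an ERSE-II and a UPRE of Hyou1 share bases. An exact ERSE was found in the windows of Creld2 and Ero1lb and in 0.0657% of all 33469 windows, and an exact ERSE-II in none of the 7 genes and in 0.0508% of all. No UPRE was found in the 7 windows, against 0.595% of all. The windows below show the element in capitals, in the direction of the gene. In Creld2, Ero1lb and Pdia4 it reads on the opposite strand. It thus begins with the reverse complement of CCACG, with 1 mismatch there in Pdia4, and ends with that of CCAAT. Pdia4 and Erp44 are shown because they matched 9 of the 10 fixed letters of ERSE. Hspa5 and Hsp90b1 are shown because their promoters hold the element and their proteins work with the isomerases. Hsp90b1 has another exact ERSE, not shown, on the opposite strand 72 to 54 bases upstream.
Creld2, chr7:121789231-121789265, + strand, element 145 to 127 bases upstream: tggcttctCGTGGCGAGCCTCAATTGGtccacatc
Ero1lb, chr17:92941450-92941484, + strand, element 224 to 206 bases upstream: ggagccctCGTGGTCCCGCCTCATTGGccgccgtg
Pdia4, chr4:78153266-78153300, - strand, element 101 to 83 bases upstream, 9 of 10 letters: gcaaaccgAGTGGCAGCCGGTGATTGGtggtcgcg
Erp44, chr5:67406427-67406457, - strand, element 246 to 228 bases upstream, 9 of 10 letters: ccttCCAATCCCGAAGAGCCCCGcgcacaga
Hspa5, chr3:38452965-38452999, + strand, element 43 to 25 bases upstream: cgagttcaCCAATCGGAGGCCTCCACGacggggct
Hsp90b1, chr7:23012443-23012477, - strand, element 176 to 158 bases upstream: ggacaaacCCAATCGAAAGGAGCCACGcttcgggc

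Pdia5 came within 2 letters of ERSE, and P4hb and Txndc5 within 3, and 1.41% of all windows held ERSE with at most 1 mismatch. The search was added after the counts were seen. A match is a string of letters and not a shown binding site. Among all genes, 38 had an exact ERSE or ERSE-II in a window, of which 23 were tested: 13 were called lower in LP, 0 were called higher and 10 were not called, where 11.7% of all genes tested were called lower, with a median log2 fold change of -0.33, beside -0.01 over all genes tested. Without Creld2 and Ero1lb it was 11 of 21. Of the 13, besides these members, 9 were on the lists below (Hyou1, Hspa5, Hsp90b1, Dnajc3, Dnajb11, Herpud1, Canx, Calr and Xbp1), and the other 2 were Ggct and Prkcz. Of the 12 tested genes with the element that were on none of the lists, 2 were called lower.

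Genes of ER folding, its control and ER-associated degradation were taken as lists, with thiol redox genes of the cytosol and mitochondria as a further list. Over all 8 lists, 87 genes were tested, of which 38 (43.7%) were called lower and 7 (8.05%) higher, where 11.7% and 15.3% of all genes tested were, with a median log2 fold change of -0.18. Among genes averaging 50 reads or more the shares were 15.5% and 17.1%. The lists were written with earlier results of these samples known, so these counts are also descriptions.

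Among other members of the PDI family, of 11 tested 3 were called lower and 0 higher, with a median log2 fold change of -0.19. Txndc11, which is known to bind the dual oxidases of the thyroid, fell from 97.2 ± 5.0 CPM to 68.0 ± 0.051 CPM (SD, n = 2; log2 fold change -0.50, standard error 0.068), and Tmx1, a membrane-bound isomerase, by 0.38 on the log2 scale (standard error 0.087). The LP libraries of Txndc11 were at 68.0, 65.2 and 70.9 CPM, a wider spread than its SD of 0.051 shows. Agr2, Agr3 and Erp27 had at most 5 reads in any library and were not tested. Among 10 further ER redox genes 2 (20%) were called lower and 0 higher, near the 11.7% of all genes tested and the 15.5% of those averaging 50 reads or more, with a median of -0.11. The count was 1 with DESeq2 and with replicates 2 and 3 summed. The called genes were the selenoprotein gene Sep15, at -0.35 (standard error 0.051), and the peroxidase gene Gpx8, at -0.41 (standard error 0.13). The call of Gpx8 was lost with replicates 2 and 3 summed (adjusted p = 0.0804 by edgeR), and it was lost without NP replicate 2, NP replicate 3 or LP replicate 2. The peroxiredoxin gene Prdx4, whose product can feed disulfides to PDI in place of ERO1, had a log2 fold change of -0.16 and was not called. Nor was the thiol oxidase gene Qsox1, at -0.04.

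The BiP and GRP94 system had the lowest median of the 8 lists. Of 14 genes tested 10 were called lower and 1 higher, with a median log2 fold change of -0.57. Hyou1, the exchange factor of BiP, fell from 1152 ± 35 CPM to 540 ± 1.2 CPM (SD, n = 2), that is -1.08 ± 0.042 on the log2 scale (fit and its standard error; edgeR, adjusted p = 1.32e-12). The LP libraries of Hyou1 were at 541, 543 and 535 CPM, a wider spread than its SD of 1.2 shows. Hspa5 (BiP) fell from 4841 ± 354 CPM to 2432 ± 100 CPM (-0.98, standard error 0.038). Hsp90b1 (GRP94) fell from 3786 ± 183 CPM to 2356 ± 126 CPM (-0.69, standard error 0.036). These sizes are of the order of the falls of Pdia4 and Ero1lb. Cdnf, a neurotrophic factor of the ER, went the other way with 1, 2 and 2 reads in the NP libraries against 55, 67 and 58 in LP, a ratio of 32.4 (exact 95% interval 13.6 to 101, which covers counting error only), alongside the skeletal muscle markers given above, whose part in it was not tested.

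In the lectin chaperone cycle, with which Pdia3 works, 4 of 7 genes tested were called lower and 1 higher, with a median of -0.27. The lectins Calr (-0.35, standard error 0.031) and Canx (-0.35, standard error 0.039) fell as well. Per 1000 reads of Calr the NP libraries held between 444 and 449.9 reads of Pdia3 and the LP libraries between 475 and 490.5, so that Pdia3 fell by less than Calr in these libraries. Tapbp, which joins Pdia3 in loading peptides on MHC class I, rose by 0.35 (standard error 0.061). Of the subunits that bind P4hb itself, the prolyl 4-hydroxylase subunits P4ha1 and P4ha2 fell by 0.57 and 0.32 on the log2 scale (standard errors 0.10 and 0.073), and P4ha3 was not called, at 0.18.

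Of 13 sensors and factors of the unfolded protein response 7 were called lower and 0 higher, with a median of -0.21, and 4 were called lower with DESeq2, with replicates 2 and 3 summed or without LP replicate 2. The largest falls were those of Atf6b (-0.34, standard error 0.057) and Xbp1 (-0.33, standard error 0.062), and Ern1, Eif2ak3 and Ddit3 had log2 fold changes of 0.20, 0.05 and 0.22 and were not called. The reads do not show splicing of the Xbp1 messenger or cleavage of the ATF6 protein. Of 13 genes of ER-associated degradation 7 were called lower and 0 higher, with a median of -0.25, led by Herpud1 (-0.54, standard error 0.065) and Os9 (-0.40, standard error 0.053).

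Thiol redox genes of the cytosol and mitochondria, which share chemistry but not compartment with the 10 genes, went both ways. Of 16 tested 5 (31.25%) were called higher and 3 (18.75%) lower, with a median of 0.05. Of all genes tested 15.3% and 11.7% were, and of those averaging 50 reads or more 17.1% and 15.5%. The share called lower was thus near that of the genes averaging 50 reads or more. Txnrd2, the mitochondrial thioredoxin reductase, rose from 18.3 ± 5.1 CPM to 36.2 ± 4.1 CPM (SD, n = 2; log2 fold change 1.05, standard error 0.16), and the largest falls were those of Glrx3 (-0.42, standard error 0.083) and Txndc9 (-0.35, standard error 0.11). The call of Txndc9 was lost without NP replicate 1, NP replicate 2, LP replicate 1 or LP replicate 2, and 1 gene of the list was called lower without NP replicate 1, LP replicate 1 or LP replicate 2. Whether this list differed from the ER lists was not tested.

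**Figure D4:**
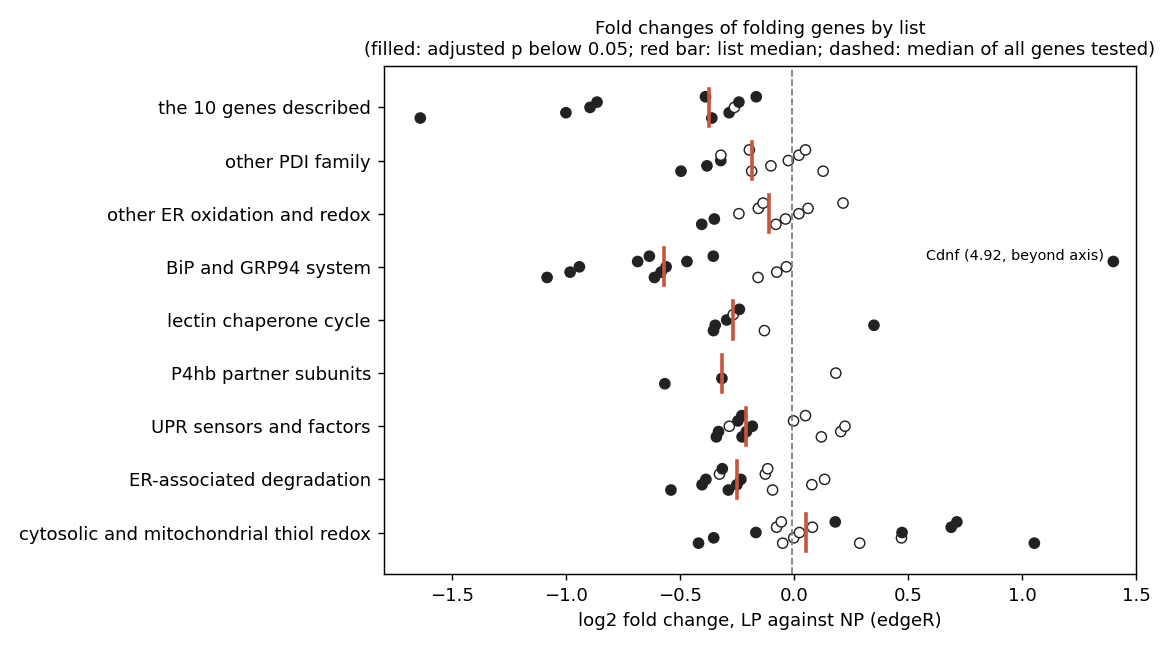
Log2 fold change of every tested gene, LP against NP, by list, with filled circles for an adjusted p below 0.05, red bars for list medians and a dashed line for the median of all genes tested. The 10 genes described lie between -1.64 and -0.17, the BiP and GRP94 list has a median of -0.57, and the cytosolic and mitochondrial list lies on both sides of 0. Cdnf, at 4.92, is drawn at the right edge.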

How the data were processed

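RNA-seq counts of 3 NP and 3 LP thyroid samples were used. The authors mapped reads to rn5 with TopHat 1.4.0 and counted them on ENSEMBL genes with HTSeq, and the deposited values are raw read counts. In R 4.3.3, edgeR 4.0.16 (quasi-likelihood test, TMM, default filter, Benjamini-Hochberg) compared LP with NP over 11738 genes, after a test on simulated data, with each standard error taken as the absolute fold change on the log2 scale over the root of F. CPM are TMM-scaled. DESeq2 1.42.0, other scalings, filters, leaving out each library, summed replicates and a replicate block were alternatives. Same-numbered samples deviated together (correlations of 0.4996, 0.227 and 0.197 across genes). Replicates 2 and 3 did so when crossed as well (0.221 and 0.221), whereas replicate 1 against them gave between -0.342 and -0.316. Pairing of replicates 2 and 3 by number was thus not shown. The main fit took no pairs, and the block was run as an alternative. Members and lists were chosen with earlier results of these data known, and the promoter search and the block on summed replicates were added after the counts were seen. Genes were named by a fixed rule: all members, and from each list the largest called rise and the 2 largest called falls, with a few partners. Ern1, Eif2ak3, Ddit3, Qsox1, Prdx4, P4ha3, Agr2, Agr3, Erp27 and the genes with an ER stress response element were named after their values were seen. So were Pygm and the C cell, parathyroid and follicular markers other than Tg. Promoters came from RefSeq (GRCr8) by symbol or synonym, without use of rn5 coordinates. Counts limit precision, and intervals cover counting error only.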

Additional observations from a re-analysis of the deposited data

How the results depend on the processing

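The 9 genes of the group called lower were called lower under each of the 15 alternatives run, with the replicate block (9) and without each library in turn (9), and Ero1l was called under none. Members past the study's criteria numbered 2, and 1 with DESeq2 size factors, with TMM computed without muscle markers, Tg and changed genes, with a mean of at least 50 reads, and with DESeq2, and between 1 and 2 without each library. Falls over all genes numbered 1374, but 2146 with library totals alone and 703 with DESeq2, and library totals raised the share of falls among calls from 43.4% to 59.5%. With a mean of at least 50 reads, 29 falls and 286 rises over all genes met the criteria, against 63 and 575. The block gave 1727 falls and 2057 rises. Over the 8 lists between 30 and 44 genes were called lower over the settings, 44 of them with the block against 38. Among the 32 genes followed through every setting, the replicate block changed no other call than that of Tg, whose log2 fold change of 0.06 (adjusted p = 0.06005 by edgeR) was called with the block, with TMM on the subset, with a mean of at least 50 reads and without NP replicate 1 (0.10) or LP replicate 2 (0.08), ranged from 0.02 to 0.10 without each library, and was -0.0089 with library totals. Acta1, not called, turned to -0.44, -0.29 and -0.29 without NP replicate 1, LP replicate 2 and LP replicate 3, in a range from -0.44 to 0.65 without each library. The calls of Gpx8 and Txndc9 were lost with DESeq2 (adjusted p = 0.142 and 0.196), that of Gpx8 without NP replicate 2, NP replicate 3 or LP replicate 2 (0.0880, 0.125 and 0.0901), and that of Txndc9 without NP replicate 1, NP replicate 2, LP replicate 1 or LP replicate 2 (0.0705, 0.0732, 0.0817 and 0.0924). The cause was not tested. Depth limits Ero1l and Pdia5 most.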

Other observations

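Genes were sought whose profile over the 6 samples lay nearest to the median profile of the 10 genes. The measure was the Euclidean distance between values of log2(CPM + 0.5) taken relative to the NP mean. The search covered 7933 others with a mean of at least 50 reads, genes of the folding lists included, and the 8 nearest were on none of those lists. The nearest was Hdlbp (vigilin, an RNA-binding protein), at a distance of 0.0226 and a log2 fold change of -0.39. Next came Por, the ER reductase of cytochromes P450 (0.0479, -0.38), Sec63, a part of the translocon through which proteins enter the ER (0.0479, -0.40), and Irs2, an adaptor of insulin signalling (0.0531, -0.41). Rapgef3, Tmem98, Yars and Ift57 followed at distances between 0.0572 and 0.0624. This likeness is a description over 6 samples in 2 groups.

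The messengers of 2 peptide hormones that also fold in the ER, made by C cells and parathyroid cells, were lower. No other marker of those cells was called lower, and whether their changes differed from those of the hormones was not tested. Calca, which encodes calcitonin, went from 8350 ± 368 CPM to 6694 ± 228 CPM (SD, replicate 1 and the mean of the others), that is -0.32 ± 0.026 on the log2 scale (fit and its standard error; edgeR, adjusted p = 3.65e-08). Of the other C cell markers Scg2 was called higher (0.42, adjusted p = 0.0058 by edgeR), and Calcb, Chgb, Chga and Ddc had log2 fold changes of -0.19, -0.14, -0.01 and 0.04 and were not called. Pth went from 4326 ± 239 CPM to 3512 ± 190 CPM, that is -0.30 ± 0.035 on the log2 scale (fit and its standard error; edgeR, adjusted p = 3.42e-06), while the parathyroid markers Casr and Gcm2 had log2 fold changes of 0.10 and 0.18 and were not called.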
